A study of Mus musculus with 15 samples.

Results

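The comparison described here asks how doxorubicin changes what happens to each gene when Hif1a is knocked down. It is the difference between 2 knockdown effects: Hif1a_siRNA_Dox against Dox, and Hif1a_siRNA against NC_siRNA. It uses 12 of the 15 libraries of the series, 3 in each of the 4 groups, and the 12721 genes listed in all 4 groups of the 13172 listed in any, of which 12715 were tested after a filter on low counts removed 6. All cells were B16.F10, a mouse melanoma line labelled as wild type, grown in 1% oxygen, and polyadenylated RNA was sequenced. NC_siRNA cells were given a negative control siRNA, and Hif1a_siRNA cells an siRNA against Hif1a. Both siRNAs were delivered as lipoplexes at 25 nM. Dox cells received 0.25 µM doxorubicin, a chemotherapy drug that damages DNA through topoisomerase II, for 24 h. Hif1a_siRNA_Dox cells received the Hif1a siRNA, then the drug 24 h later. The treatment label of the Dox group names no siRNA, and the protocol shared by all samples does not say whether its cells were transfected. If they were not, the effect with the drug holds the transfection as well as the knockdown, and these cannot be told apart within it. The effect without the drug is set against a transfected control. The time of harvest of the groups without the drug is not given in the sources used here, so time since transfection and the drug cannot be told apart either.

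The product of Hif1a, HIF-1α, is the part of the transcription factor HIF-1 that senses low oxygen through its stability. In normal oxygen it is hydroxylated by prolyl hydroxylases and destroyed through the ubiquitin ligase that contains the product of Vhl. In hypoxia it is kept, pairs with the product of Arnt, binds hypoxia response elements around the letters ACGTG and raises genes of glucose uptake, glycolysis, angiogenesis, matrix hydroxylation and mitophagy. The lists of HIF targets below hold genes of these kinds. No group was grown in normal oxygen, so the lists do not measure how much of the hypoxic programme rests on HIF-1.

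Library totals ran from 23794094 to 28697411 reads. The first principal component, with 78.2% of the variance, separated the libraries with the drug from those without. The second, with 14.3%, separated Hif1a_siRNA from NC_siRNA by far more than Hif1a_siRNA_Dox from Dox. Replicate 3 of Hif1a_siRNA_Dox stood apart from the other 2 on the third component, at 9.01 against 29.97 and 35.95. Within each group every pair of libraries differed by more than sampling noise. Reads from the mitochondrial genome made up 1.64% to 2.12% of the libraries without the drug and 3.38% to 5.09% of those with it. All 7 melanocyte markers were among the tested genes, with a summed level of 8583 to 9268 CPM (read counts relative to the scaled library size) in NC_siRNA and 41082 to 47936 in Dox. The members did not move together. Mean levels of Tyrp1, Dct, Pmel and Mlana were higher in Dox. Those of Sox10 (220 CPM in NC_siRNA, 29.5 in Dox), Mitf (56.9 and 44.5) and Tyr (75.0 and 60.0) were lower. Of the markers of other cell types, 2 of 8 fibroblast, 1 of 10 leukocyte and 0 of 8 endothelial and epithelial genes were tested. The labels call the replicates biological and do not name separate cultures, so the p-values reflect spread among these libraries, which could be technical.

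Hif1a was lower in the knockdown in both settings. Hif1a (gene ID 15251, chromosome 12, 73901324 to 73947554; coordinates throughout are those of mm10) stood at 299, 278 and 273 CPM in NC_siRNA, 17.2, 16.5 and 19.6 in Hif1a_siRNA, 142, 142 and 158 in Dox and 14.0, 12.0 and 14.7 in Hif1a_siRNA_Dox. All 6 libraries given the siRNA were below all 6 without it. The knockdown effect, a log2 fold change, was −3.99 ± 0.09 (standard error, SE) without the drug and −3.44 ± 0.09 with it. The difference, with minus without, was 0.55 ± 0.12 (edgeR adjusted p = 0.00048, n = 3 libraries in each group), so the relative fall of Hif1a was slightly smaller under the drug. Taking the untreated Control group as the reference without the drug, in place of NC_siRNA, gave a difference of 0.22 (edgeR adjusted p = 0.12). Dox libraries lay in between: each was below every NC_siRNA library and above every library of either knockdown group.

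Over the whole transcriptome the knockdown moved fewer genes under doxorubicin, and moved them less far. Without the drug 8661 genes (68.1%) changed in the knockdown, 4668 (36.7%) higher and 3993 (31.4%) lower, at an edgeR adjusted p under 0.05, the threshold for a call throughout. With the drug 5433 (42.7%) changed, 2780 (21.9%) higher and 2653 (20.9%) lower. Changes of at least 2-fold numbered 1464 (11.5%) higher and 1304 (10.3%) lower without the drug. With the drug they numbered 93 (0.731%) and 307 (2.41%). The median absolute log2 fold change was 0.50 without the drug and 0.26 with it. Across genes, which are not independent replicates, the 2 effects had a Pearson r of 0.233 and a Spearman rho of 0.197, over 4 groups that share no library.

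The difference itself passed the threshold for 7426 genes, 58.4% of those tested: 3464 (27.2%) were higher and 3962 (31.2%) lower. A higher value means that the knockdown raised the gene more, or lowered it less, with the drug than without. Among the called genes, 3649 (49.1%) changed without the drug and did not pass the test with it, and are called lost below. Another 1130 (15.2%) changed the same way in both settings but less with the drug (weaker), and 176 (2.37%) more with the drug (stronger). Changes in opposite directions that both passed the test were found for 1342 genes (18.1%, reversed). A further 961 (12.9%) changed only with the drug (gained), and 168 passed in neither setting on its own. Taking Control in place of NC_siRNA, the weaker genes numbered 1791, the reversed 873 and the gained 590. For 6600 genes (51.9%) the 9 pairwise differences between libraries with the drug did not overlap the 9 without it.

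**Figure D1:**
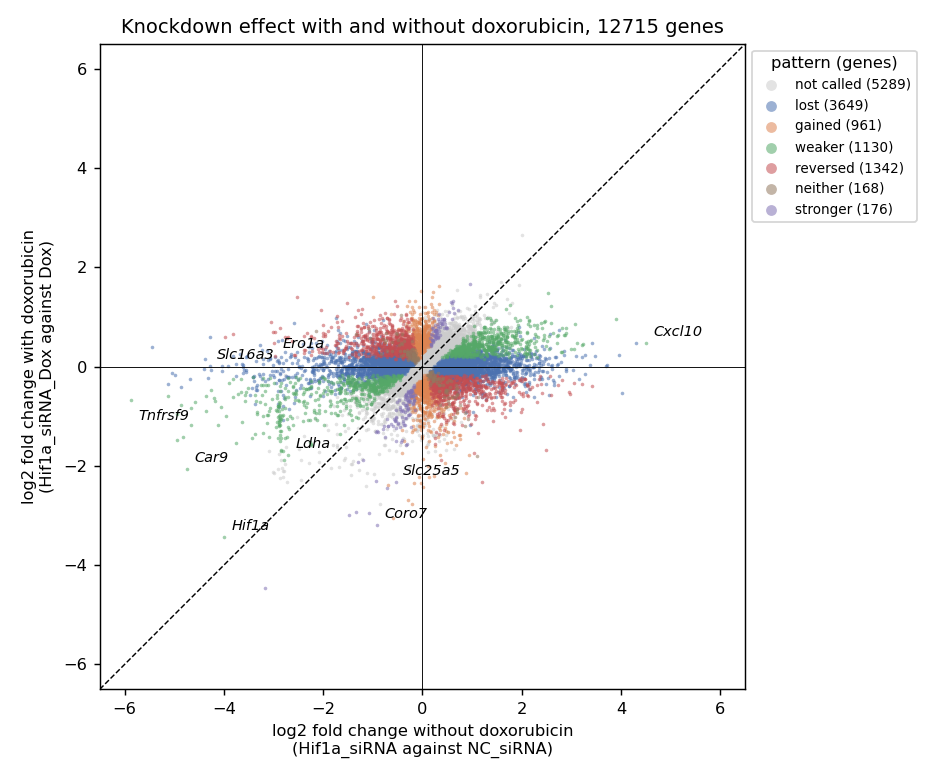
Knockdown effect of each of the 12715 tested genes without doxorubicin (horizontal axis, log2 fold change of Hif1a_siRNA against NC_siRNA) and with it (vertical axis, Hif1a_siRNA_Dox against Dox), coloured by pattern. Genes on the dashed line changed equally in both settings. The cloud is wide along the horizontal axis and narrow along the vertical one, and Hif1a lies near the dashed line.

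Genes that responded strongly without the drug show the same contrast. The 1304 genes at least 2-fold lower without the drug had a median effect of −1.52 there and −0.17 with the drug. Of these, 450 were also lower with the drug, 155 were higher and 699 did not pass. The 1464 genes at least 2-fold higher had a median of 1.40 without the drug and 0.13 with it, where 437 were higher, 187 lower and 840 did not pass. Since both sets were chosen by the effect without the drug, their medians are a description.

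The core letters to which HIF binds are shown in the promoters of 3 HIF targets whose values follow, chosen as examples of a lost (Slc2a1), a reversed (Ero1a) and a weaker (Ldha) effect. Each line holds the 150 bases before a RefSeq start site (assembly GRCm38.p6), 5′ to 3′ on the gene's strand, with each ACGTG, or CACGT for the other strand, in capitals. The letters overlap the E-box CACGTG, and in Ldha 2 of the runs are such a palindrome.
Slc2a1, chr4:119108595-119108744, plus strand: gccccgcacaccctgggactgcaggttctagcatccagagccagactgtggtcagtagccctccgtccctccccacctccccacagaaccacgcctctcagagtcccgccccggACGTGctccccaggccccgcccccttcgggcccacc
Ero1a, chr14:45318573-45318722, minus strand: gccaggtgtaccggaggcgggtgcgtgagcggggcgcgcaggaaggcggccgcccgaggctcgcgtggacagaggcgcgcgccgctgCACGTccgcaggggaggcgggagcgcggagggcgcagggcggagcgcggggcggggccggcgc
Ldha, chr7:46845654-46845803, plus strand: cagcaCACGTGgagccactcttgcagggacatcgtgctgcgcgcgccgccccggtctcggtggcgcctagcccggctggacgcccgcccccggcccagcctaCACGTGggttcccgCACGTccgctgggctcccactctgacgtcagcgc
Over windows of 300 bases, from 250 before to 50 after a start site, 31 of the 43 HIF targets with a RefSeq promoter (72.1%) held at least 1 match. Among the 9551 tested genes with a promoter the share was 30.2%, and it was 21.8% among the 27025 genes that have a promoter in all. By pattern, 8 of 9 lost, 17 of 26 weaker and 5 of 5 reversed HIF targets with a promoter held a match. A match describes letters and is no measure of binding.

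HIF targets of glycolysis and glucose uptake fell together without the drug, and most fell less with it. Of 21 genes tested, 19 were lower without the drug and 17 with it, with medians of −2.40 and −0.90. In the difference 19 were higher, against 27.2% of all genes, and 2 lower, with a median of 1.31 against −0.05 for all genes. By pattern 15 were weaker, 3 lost, 1 reversed, 1 stronger and 1 gained. Against Control, 19 were higher and 1 lower, with a median of 1.77. Summed over the list, the level was 60724 to 63615 CPM in NC_siRNA against 14159 to 14469 in Hif1a_siRNA. Under the drug it was 41728 to 44976 CPM in Dox against 17734 to 20181 in Hif1a_siRNA_Dox. In bulk RNA, a change in the mix of cells and a change in RNA per cell cannot be told apart.

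The 3 genes whose fall was lost work at the entry and exit of the pathway. Slc2a1 (gene ID 20525, chromosome 4, 119108745 to 119137330), the glucose transporter GLUT1, stood at 634, 660 and 663 CPM in NC_siRNA, 51.3, 53.8 and 53.6 in Hif1a_siRNA, 42.1, 55.4 and 51.1 in Dox and 47.3, 52.0 and 48.5 in Hif1a_siRNA_Dox. The NC_siRNA libraries were above the other 9, and those of Dox and Hif1a_siRNA_Dox overlapped. Its knockdown effect was −3.62 ± 0.08 without the drug and −0.01 ± 0.08 with it (difference 3.62 ± 0.11, edgeR adjusted p = 6.2e-16). Slc16a3 (gene ID 80879, chromosome 11, 120948484 to 120959000), the lactate exporter MCT4, stood at 338, 339 and 331 CPM in NC_siRNA, 18.0, 18.0 and 16.1 in Hif1a_siRNA, 21.5, 21.9 and 26.1 in Dox and 25.8, 21.3 and 22.6 in Hif1a_siRNA_Dox. Again only NC_siRNA was high, and the effects were −4.28 ± 0.09 and 0.01 ± 0.09 (difference 4.28 ± 0.12, edgeR adjusted p = 4.4e-16; 3.09 with Control in place of NC_siRNA). Hk2, the inducible hexokinase, changed by −2.56 ± 0.08 without the drug and by 0.20 ± 0.08 with it (edgeR adjusted p = 0.053 for the latter), and its difference of 2.76 was 1.82 with Control.

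The enzymes between these steps kept part of their fall. Ldha (gene ID 16828, chromosome 7, 46842274 to 46855627), which makes lactate, stood at 3946, 3813 and 3964 CPM in NC_siRNA, 596, 599 and 609 in Hif1a_siRNA, 1504, 1712 and 1576 in Dox and 465, 522 and 408 in Hif1a_siRNA_Dox. The 4 groups did not overlap, and Dox libraries lay between NC_siRNA and Hif1a_siRNA. The effect was −2.70 ± 0.08 without the drug and −1.78 ± 0.08 with it (difference 0.92 ± 0.10, edgeR adjusted p = 2e-07, and 1.74 with Control in place of NC_siRNA). Gapdh (gene ID 14433, chromosome 6, 125161852 to 125166467) went by −2.93 ± 0.06 and −1.11 ± 0.06; it has near-identical pseudogene copies, so the split of its reads is uncertain. Gpi1, which converts glucose 6-phosphate, changed by −2.40 ± 0.07 and −1.09 ± 0.06. With Control as reference the differences of Gapdh and Gpi1 were 2.72 and 2.0 in place of 1.82 and 1.32. Pgk1 changed by −2.27 ± 0.06 and −1.51 ± 0.06, with a difference of 0.76 that became 1.42 with Control in place of NC_siRNA. For Pdk1, the kinase that shuts pyruvate dehydrogenase, the effects were −3.64 ± 0.07 and −1.11 ± 0.08, with a difference of 2.53 that was 1.81 with Control. Eno1 had the smallest difference of the list that passed, 0.29 ± 0.10 (edgeR adjusted p = 0.015), with effects of −1.65 ± 0.07 and −1.36 ± 0.07, and it has a near-identical copy, so the split of its reads is uncertain. That difference was 1.19 with Control in place of NC_siRNA.

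The other 3 members went their own way. Aldoa (gene ID 11674, chromosome 7, 126795234 to 126800994), the main aldolase, stood at 8463, 8171 and 8908 CPM in NC_siRNA, 3467, 3456 and 3553 in Hif1a_siRNA, 4241, 4037 and 4473 in Dox and 1136, 1186 and 1022 in Hif1a_siRNA_Dox. All 4 groups were apart, with Hif1a_siRNA_Dox lowest. Its fall was larger with the drug, −1.93 ± 0.07 against −1.29 ± 0.07 (difference −0.65 ± 0.09, edgeR adjusted p = 4e-06), but not with Control in place of NC_siRNA (0.08, edgeR adjusted p = 0.47). On the scale of CPM rather than fold the sign of the difference was opposite for Aldoa, which fell by fewer CPM with the drug, and for Eno1 and Pkm, which fell by more. Slc2a3, the transporter GLUT3, stood at 5.32, 3.57 and 3.73 CPM in NC_siRNA, 15.0, 15.5 and 15.1 in Hif1a_siRNA, 82.8, 81.5 and 86.3 in Dox and 74.4, 64.4 and 67.9 in Hif1a_siRNA_Dox. Its levels with the drug were above all those without it, and the effect was 1.85 ± 0.12 without and −0.28 ± 0.09 with the drug. Pfkfb4, a regulator of fructose 2,6-bisphosphate, passed only with the drug (0.75 ± 0.15; −0.10 ± 0.16 without).

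**Figure D2:**
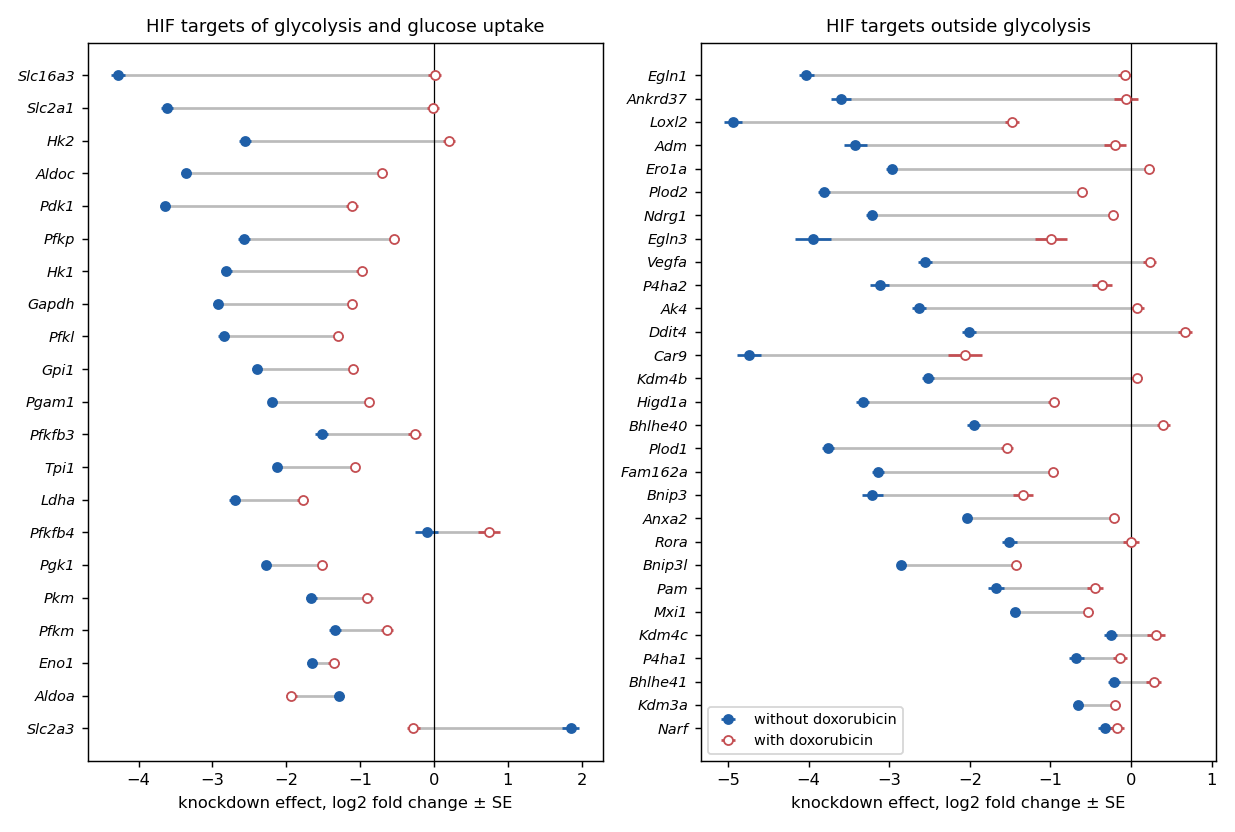
Knockdown effect (log2 fold change ± SE) of each HIF target without doxorubicin (filled) and with it (open), for 21 genes of glycolysis and glucose uptake (left) and 29 other targets (right), ordered by the difference. Nearly all filled points lie far to the left, whereas the open points of Slc16a3, Slc2a1 and Egln1 lie near 0 and those of Ero1a, Vegfa and Ddit4 to the right of it.

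Outside glycolysis, all 29 tested HIF targets (of 33 listed; Car12, Stc2, Lox and Tmem45a were not among the genes listed in all groups) were lower without the drug, with a median of −2.85. With the drug 15 were lower, 6 higher and 8 did not pass, with a median of −0.20. In the difference 28 were higher and 0 lower, against 27.2% and 31.2% of all genes, with a median of 2.38. The remaining gene, Narf, had 0.13 ± 0.13 (edgeR adjusted p = 0.37). With Control in place of NC_siRNA 26 were higher, Narf was lower (−0.41), and Egln3 and Pam did not pass. The list's summed level was 24230 to 24905 CPM in NC_siRNA against 4501 to 4608 in Hif1a_siRNA. Under the drug it was 5048 to 5294 CPM in Dox against 3871 to 4204 in Hif1a_siRNA_Dox.

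A group of 15 targets still fell under the drug, several of them acting on mitochondria, pH and collagen. Bnip3 and Bnip3l are mitophagy receptors. Bnip3 (gene ID 12176, chromosome 7, 138890836 to 138909506) stood at 1417, 1463 and 1305 CPM in NC_siRNA, 150, 154 and 149 in Hif1a_siRNA, 113, 124 and 133 in Dox and 39.0, 61.3 and 45.3 in Hif1a_siRNA_Dox, with every Hif1a_siRNA_Dox library below every other. Its effect was −3.21 ± 0.13 without the drug and −1.34 ± 0.12 with it (difference 1.86 ± 0.17, edgeR adjusted p = 2.3e-07). For Bnip3l the effects were −2.85 ± 0.06 and −1.43 ± 0.06. Car9, a carbonic anhydrase that acidifies the cell's surroundings, stood at 238, 269 and 263 CPM in NC_siRNA, 9.1, 10.1 and 9.52 in Hif1a_siRNA, 9.43, 6.34 and 8.67 in Dox and 1.03, 2.52 and 2.27 in Hif1a_siRNA_Dox. It was highest in NC_siRNA and lowest in Hif1a_siRNA_Dox, with effects of −4.74 ± 0.15 and −2.06 ± 0.21. Loxl2, a lysyl oxidase, had effects of −4.94 ± 0.11 and −1.48 ± 0.09. Plod1 and Plod2 hydroxylate collagen lysines. Plod1 had effects of −3.76 ± 0.07 and −1.54 ± 0.07, and Plod2 of −3.81 ± 0.07 and −0.61 ± 0.06 (difference 3.19, 2.34 with Control). Ndrg1 kept a small fall, −0.22 ± 0.06 against −3.22 ± 0.07; its Dox libraries overlapped those of NC_siRNA. The other members that fell in both settings were Anxa2, Mxi1, P4ha2, Pam, Higd1a, Fam162a, Kdm3a and Egln3, with differences from 0.47 for Kdm3a to 2.96 for Egln3.

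In 7 targets the fall was lost. Egln1 (gene ID 112405, chromosome 8, 124908587 to 124949254), the prolyl hydroxylase PHD2 that marks HIF-1α for destruction, stood at 494, 514 and 506 CPM in NC_siRNA, 28.7, 32.1 and 31.6 in Hif1a_siRNA, 37.1, 43.2 and 34.2 in Dox and 37.1, 38.4 and 32.5 in Hif1a_siRNA_Dox. NC_siRNA alone was high, and Dox and Hif1a_siRNA_Dox overlapped. The effect was −4.03 ± 0.09 without the drug and −0.08 ± 0.08 with it (difference 3.95 ± 0.12, edgeR adjusted p = 5.4e-16). With Control it was 2.73. The others were Adm, which encodes the vasodilator adrenomedullin (−3.42 ± 0.14 and −0.20 ± 0.14), Ankrd37 (−3.60 ± 0.13 and −0.06 ± 0.15), the adenylate kinase Ak4 (−2.63 ± 0.09 and 0.08 ± 0.08), the histone demethylase Kdm4b (−2.52 ± 0.08 and 0.07 ± 0.07), Rora (−1.51 ± 0.09 and −0.00 ± 0.10) and P4ha1 (−0.68 ± 0.09 and −0.14 ± 0.09). Their levels under the drug differed: all Dox libraries were above all Hif1a_siRNA libraries for Egln1, Adm, Ak4 and Kdm4b, and below them for Ankrd37, Rora and P4ha1. Ak4 stood at 54.9 ± 4.8 CPM in Dox (SD, n = 3) and 16.9 ± 0.32 in Hif1a_siRNA. With Control the differences were 3.89 for Adm in place of 3.22, 4.55 for Ankrd37 in place of 3.53 and 0.38 for Rora in place of 1.51.

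Another 6 targets were higher in the knockdown once the drug was present. Ero1a (gene ID 50527, chromosome 14, 45283087 to 45318572), the oxidase that recharges protein disulfide isomerase, stood at 10287, 9722 and 9381 CPM in NC_siRNA, 1250, 1240 and 1269 in Hif1a_siRNA, 223, 224 and 232 in Dox and 284, 256 and 251 in Hif1a_siRNA_Dox. Both groups with the drug were far below both without it, and all Hif1a_siRNA_Dox libraries were above all Dox libraries. Its effect went from −2.97 ± 0.07 to 0.22 ± 0.06 (difference 3.19 ± 0.09, edgeR adjusted p = 3.4e-16; 2.27 with Control). Vegfa, the angiogenic growth factor, stood at 829, 1112 and 1002 CPM in NC_siRNA, 163, 172 and 165 in Hif1a_siRNA, 128, 123 and 113 in Dox and 142, 150 and 134 in Hif1a_siRNA_Dox, and its effect went from −2.56 ± 0.09 to 0.23 ± 0.08 (edgeR adjusted p = 0.031 for the latter). Ddit4, an inhibitor of mTORC1, stood at 648, 654 and 649 CPM in NC_siRNA, 163, 158 and 163 in Hif1a_siRNA, 37.9, 54.2 and 45.4 in Dox and 78.9, 66.0 and 74.3 in Hif1a_siRNA_Dox. Its Hif1a_siRNA_Dox libraries were above those of Dox and below both groups without the drug, and its effect went from −2.01 ± 0.09 to 0.67 ± 0.09. Bhlhe40, a transcriptional repressor, went from −1.95 ± 0.08 to 0.40 ± 0.08. The other 2, Bhlhe41 (−0.21 ± 0.07 and 0.28 ± 0.09) and Kdm4c (−0.25 ± 0.08 and 0.31 ± 0.11), had smaller effects in both settings.

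The level in Dox cells is part of each of these differences. All 3 Dox libraries were below all 3 NC_siRNA libraries for 26 of the 29 targets outside glycolysis (89.7%, against 42.5% of all genes). They were also below all Hif1a_siRNA libraries for 13 and above them for 14. Of the 21 glycolytic targets 16 were below NC_siRNA (76.2%), and 18 were above Hif1a_siRNA (85.7%, against 45.7% of all genes). Most glycolytic targets thus stayed higher with the drug alone than with the knockdown alone, whereas outside glycolysis the targets were split.

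**Figure D3:**
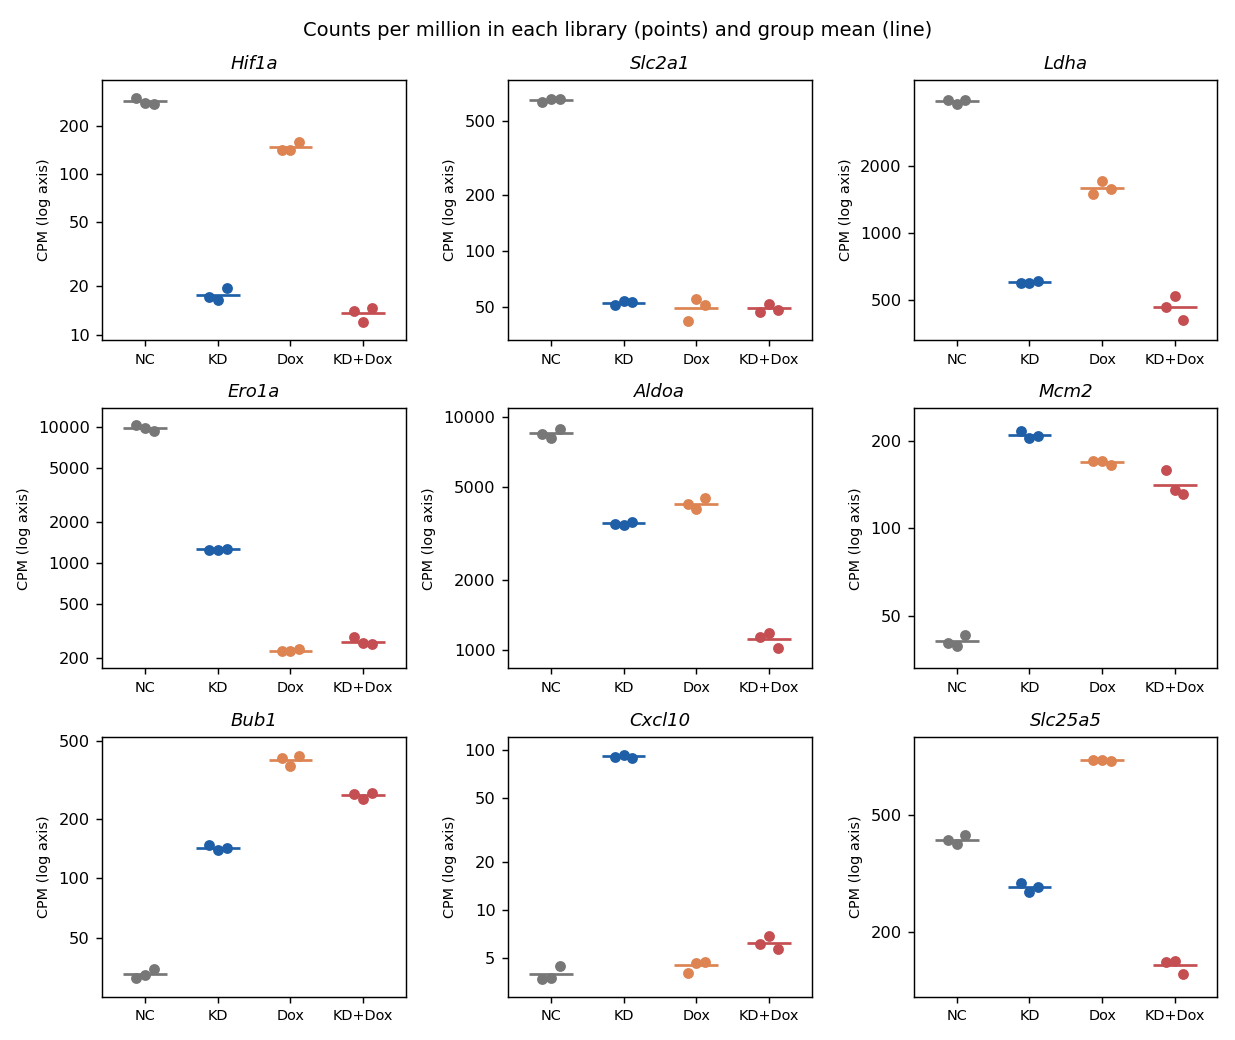
Level of 9 genes in each of the 12 libraries (points, CPM on a log axis) with group means (lines) for NC_siRNA (NC), Hif1a_siRNA (KD), Dox and Hif1a_siRNA_Dox (KD+Dox). Slc2a1 is high in NC alone, Ldha and Aldoa fall with the siRNA in both settings, Ero1a is lowest with the drug, and Mcm2 and Bub1 are lowest in NC.

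The subunits and regulators of HIF changed unevenly. Of 11 listed, 9 were tested (Arnt2 and Hif3a were not), and Egln1 and Egln3 stand in the list above too. In the difference 8 were higher and 0 lower, against 27.2% and 31.2% of all genes, with a median of 1.05. With Control in place of NC_siRNA 5 were higher and 1, Hif1an, lower, and the median was 0.58. Arnt, the partner of HIF-1α, stood at 211, 206 and 201 CPM in NC_siRNA, 191, 194 and 185 in Hif1a_siRNA, 10.4, 9.47 and 8.63 in Dox and 12.8, 12.6 and 12.6 in Hif1a_siRNA_Dox. It was over 10-fold lower in both groups with the drug, and passed the test of the knockdown only there (0.41 ± 0.08; −0.12 ± 0.06 without). Epas1, which encodes HIF-2α, stood at 41.7, 33.6 and 32.5 CPM in NC_siRNA, 8.82, 10.0 and 11.2 in Hif1a_siRNA, 33.1, 33.5 and 30.6 in Dox and 35.7, 30.5 and 38.8 in Hif1a_siRNA_Dox. Only Hif1a_siRNA was low, and the effects were −1.84 ± 0.12 and 0.11 ± 0.11 (difference 1.95 ± 0.16, 0.84 with Control in place of NC_siRNA). Vhl fell in both settings (−1.48 ± 0.09 and −0.42 ± 0.10). Cited2, a competitor of HIF-1α for its coactivators, was reversed, from −1.68 ± 0.07 to 0.63 ± 0.07 (difference 2.31, 1.66 with Control). Egln3, another prolyl hydroxylase, had a difference of 2.96 ± 0.30 that dropped to 0.48 (edgeR adjusted p = 0.22) with Control in place of NC_siRNA. Egln2 passed with a difference of 0.47 ± 0.17 (edgeR adjusted p = 0.022), which was 0.08 with Control (edgeR adjusted p = 0.7). That difference no longer passed, at 0.42 to 0.44, when replicate 3 of Hif1a_siRNA or replicate 1 or 2 of NC_siRNA was left out. Hif1an, the asparaginyl hydroxylase, had −0.21 ± 0.17 (edgeR adjusted p = 0.31) and −0.52 with Control (edgeR adjusted p = 0.02).

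Proliferation genes showed the opposite sign. All 36 genes of DNA replication were higher in the knockdown without the drug, with a median of 1.83. With the drug the median was −0.05. In the difference 0 were higher and 36 lower, against 31.2% of all genes lower, with a median of −1.89. By pattern 17 were lost, 12 reversed and 7 weaker. Against Control, 34 were lower and the median was −1.03. For 33 of the 36 all Dox libraries were already above all NC_siRNA libraries (91.7%, against 45.4% of all genes).

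Mcm2 (gene ID 17216, chromosome 6, 88883474 to 88898780), a subunit of the replicative helicase, stood at 40.4, 39.5 and 43.1 CPM in NC_siRNA, 216, 204 and 207 in Hif1a_siRNA, 170, 170 and 165 in Dox and 158, 135 and 131 in Hif1a_siRNA_Dox. NC_siRNA was lowest, and Hif1a_siRNA_Dox lay below Dox. Its effect was 2.35 ± 0.08 without the drug and −0.25 ± 0.07 with it (difference −2.60 ± 0.10, edgeR adjusted p = 1.8e-14; −1.51 with Control). Cdc6, which licenses origins, had 1.14 ± 0.24 CPM in NC_siRNA (SD, n = 3) and 12.1 ± 0.88 in Hif1a_siRNA, with a difference of −3.80 ± 0.21 that was −2.76 with Control. Pole, the catalytic subunit of polymerase epsilon, had 3.21 ± 0.12 and −0.35 ± 0.10, and its difference of −3.56 became −2.03 with Control in place of NC_siRNA. Mcm5 was reversed as well (1.83 ± 0.08 and −0.71 ± 0.07), with −1.11 against Control in place of −2.53.

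Mitotic genes had the same sign, and fewer of them held it against Control. Of 30 tested, 29 were higher without the drug and 29 were lower in the difference, against 31.2% of all genes lower. The median difference was −1.38. The median effect was 1.56 without the drug and 0.11 with it. The exception was Pttg1, which encodes securin, with a difference of 0.54 ± 0.15. Against Control, 16 were lower and 7 higher, with a median of −0.35. Bub1 (gene ID 12235, chromosome 2, 127800197 to 127831859), a kinase of the spindle checkpoint, stood at 31.4, 32.3 and 34.9 CPM in NC_siRNA, 148, 139 and 142 in Hif1a_siRNA, 407, 371 and 418 in Dox and 269, 254 and 272 in Hif1a_siRNA_Dox. The 4 groups did not overlap, with Dox highest. Its difference was −2.71 ± 0.09 (edgeR adjusted p = 2.3e-15), and −0.18 (edgeR adjusted p = 0.097) with Control in place of NC_siRNA. Birc5, which encodes survivin, went from 1.98 ± 0.09 to −0.56 ± 0.09, with −0.83 in place of −2.54 against Control. Kif11, a spindle motor, went from 1.74 ± 0.07 to 0.11 ± 0.07, and its difference was −0.80 against Control.

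Repair genes moved in the same direction in part. In homologous recombination and the Fanconi anaemia pathway 14 of 25 were lower and 2 higher in the difference, against 31.2% and 27.2% of all genes, with a median of −0.99 that was −0.58 with Control. Brip1, a helicase partner of BRCA1, went from 3.10 ± 0.13 to 0.21 ± 0.12, and its difference of −2.89 was −1.69 against Control. Fanci went from 2.1 ± 0.14 to −0.36 ± 0.13, with a difference of −2.46 that was −0.76 against Control. Of 27 genes of damage signalling and end joining 14 were lower and 0 higher, with a median of −0.51, and 11 lower and 5 higher with Control, with a median of −0.28. Chek1, the checkpoint kinase, led them: it stood at 2.49, 3.26 and 3.69 CPM in NC_siRNA, 31.7, 29.6 and 30.2 in Hif1a_siRNA, 24.7, 26.6 and 26.7 in Dox and 22.2, 24.4 and 24.1 in Hif1a_siRNA_Dox. NC_siRNA was lowest, and its effect went from 3.27 ± 0.13 to −0.14 ± 0.11 (difference −3.42 ± 0.16, edgeR adjusted p = 3.5e-13; −2.26 against Control).

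Genes of ribosome biogenesis in the nucleolus had the sign of the replication genes. Of 30 tested 28 were higher without the drug. In the difference 28 were lower and 0 higher, against 31.2% and 27.2% of all genes. The median difference was −1.5, and −1.13 with Control as reference. Nop58, a core protein of box C/D snoRNPs, stood at 31.0, 28.8 and 33.7 CPM in NC_siRNA, 294, 298 and 287 in Hif1a_siRNA, 43.8, 43.4 and 47.3 in Dox and 59.2, 66.5 and 59.0 in Hif1a_siRNA_Dox. Hif1a_siRNA was above all other groups, and the rise was smaller with the drug (0.46 ± 0.07 against 3.23 ± 0.08; difference −2.77, −2.0 against Control). Its partner Nop56 went from 2.56 ± 0.08 to 0.17 ± 0.07. Dkc1, the pseudouridine synthase of H/ACA snoRNPs, stood at 8.23, 6.56 and 6.5 CPM in NC_siRNA, 42.5, 45.3 and 43.5 in Hif1a_siRNA, 122, 132 and 136 in Dox and 118, 122 and 136 in Hif1a_siRNA_Dox, so that its Dox level exceeded even that of Hif1a_siRNA, and its effect went from 2.62 ± 0.10 to −0.05 ± 0.08.

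The cytosolic ribosomal proteins are a case where the reference sets the sign. Against NC_siRNA 61 of 81 were lower in the difference and 0 higher, against 31.2% and 27.2% of all genes. The median was −0.44. With Control in place of NC_siRNA 60 were higher and 0 lower, with a median of 0.42. Rps2 had −0.86 ± 0.09 against NC_siRNA and 0.28 against Control, and Rpl8 −0.73 ± 0.08 and 0.33. Rpl3 had −0.76 ± 0.09 and 0.05 (edgeR adjusted p = 0.63). Many ribosomal protein genes have processed pseudogenes, so the split of their reads is uncertain. In the effect with the drug, which holds no NC_siRNA library, 67 of 81 were lower, against 20.9% of all genes. Replicate 3 of Hif1a_siRNA_Dox was above the other 2 for 64 of the 81 genes, by at least 1.5-fold for 6, and 65 were lower without it. Without replicate 2 of that group 57 were lower.

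**Figure D4:**
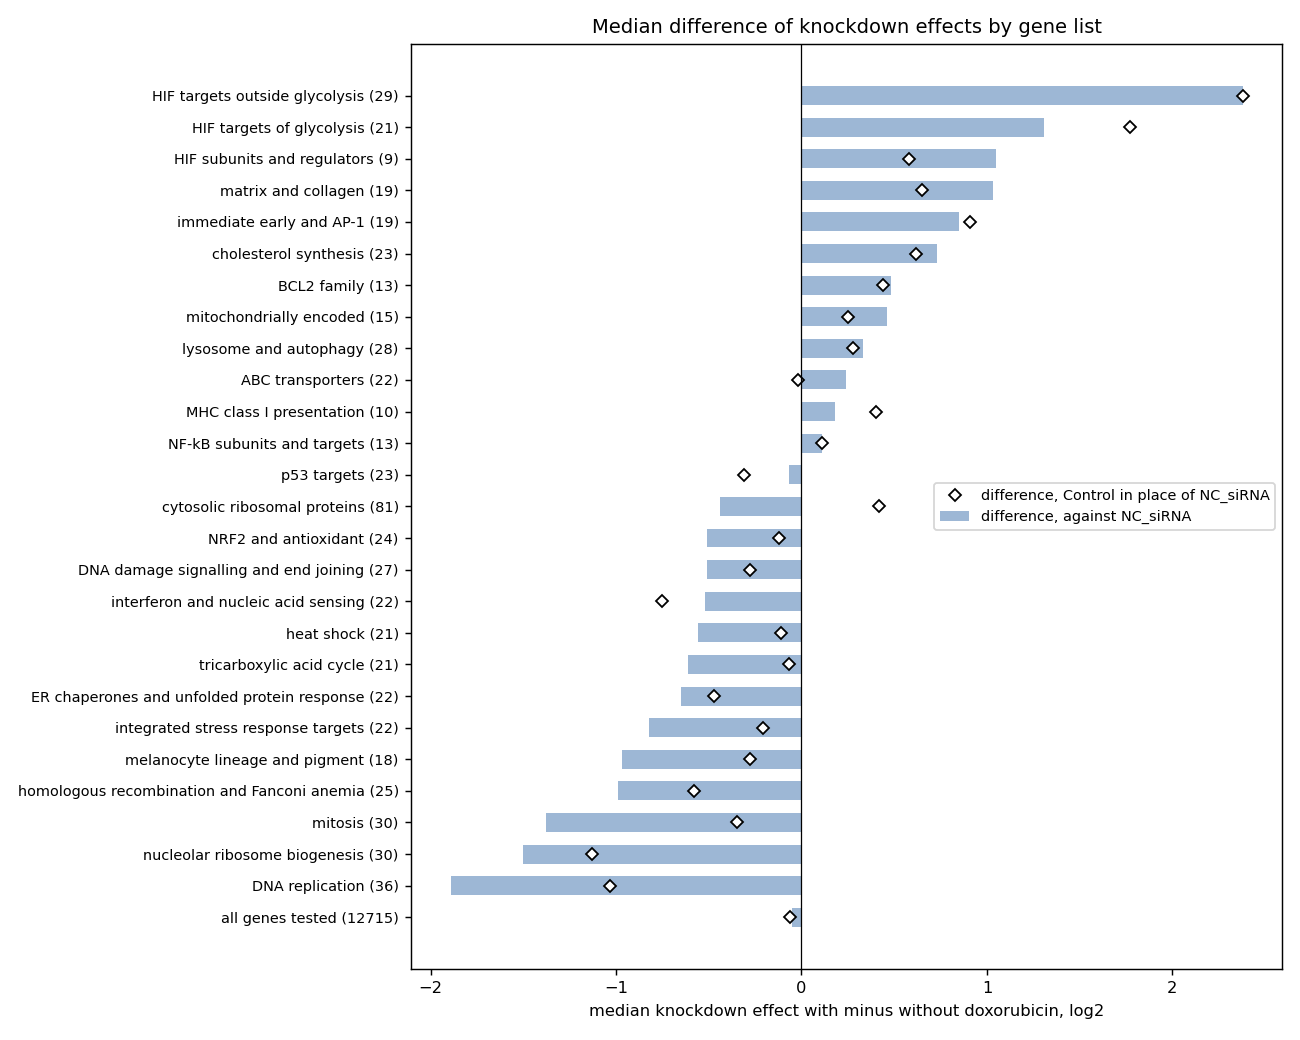
Median difference of knockdown effects, with minus without doxorubicin (log2), over the tested members of each gene list (number in parentheses). Bars use NC_siRNA and diamonds use Control as the reference without the drug. HIF targets sit at the top, and DNA replication and nucleolar ribosome biogenesis at the bottom, with either reference, whereas the cytosolic ribosomal proteins change sign. With Control the medians of ABC transporters (−0.02), the tricarboxylic acid cycle (−0.07), heat shock (−0.11) and NRF2 and antioxidant genes (−0.12) come near 0.

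Genes of amino acid supply and protein folding were more often lower than higher in the difference. Among 22 targets of the integrated stress response 15 were lower and 4 higher in the difference, against 31.2% and 27.2% of all genes, with a median of −0.82. With Control as reference 10 were lower and 6 higher, and the median was −0.21. Slc7a5 and Slc3a2 form the large neutral amino acid transporter. Slc7a5 stood at 79.5, 75.3 and 74.2 CPM in NC_siRNA, 240, 236 and 236 in Hif1a_siRNA, 283, 290 and 316 in Dox and 180, 197 and 150 in Hif1a_siRNA_Dox. NC_siRNA was lowest, and the knockdown libraries were above their reference without the drug and below it with the drug. Its effect went from 1.64 ± 0.08 to −0.75 ± 0.08 (difference −2.39 ± 0.11, edgeR adjusted p = 2.4e-13; −1.31 against Control). Slc3a2 went from 1.5 ± 0.07 to −0.40 ± 0.06, with −1.11 against Control. The mitochondrial folate enzymes Mthfd2 (0.81 ± 0.06 and −0.83 ± 0.06) and Shmt2 (1.55 ± 0.07 and −0.26 ± 0.07) were reversed too, with differences of −0.59 and −0.72 against Control in place of −1.64 and −1.81.

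Endoplasmic reticulum chaperones were lower in the difference for 15 of 22 and higher for 2, against 31.2% and 27.2% of all genes. Their median was −0.65. Pdia3, a disulfide isomerase, stood at 558, 514 and 526 CPM in NC_siRNA, 431, 419 and 410 in Hif1a_siRNA, 1706, 1608 and 1814 in Dox and 628, 551 and 536 in Hif1a_siRNA_Dox. Dox was above the other 9 libraries, and the fall was larger with the drug, −1.58 ± 0.07 against −0.34 ± 0.07 (difference −1.24 ± 0.10, edgeR adjusted p = 5.5e-10). Pdia4 passed only with the drug (−1.19 ± 0.09). P4hb, a disulfide isomerase that is also a subunit of prolyl 4-hydroxylase, went the other way, from −2.76 ± 0.07 to −0.43 ± 0.07. Heat shock genes were lower for 13 of 21 and higher for 2, but 10 lower and 9 higher against Control, with a median that went from −0.56 to −0.11. Hspd1, which encodes the mitochondrial chaperonin HSP60, stood at 248, 247 and 252 CPM in NC_siRNA, 1103, 1062 and 1037 in Hif1a_siRNA, 1035, 943 and 1004 in Dox and 681, 646 and 684 in Hif1a_siRNA_Dox. NC_siRNA was lowest and both knockdown groups differed from their references without overlap, upward without the drug and downward with it (2.1 ± 0.06 and −0.57 ± 0.06; difference −2.67 ± 0.08, −1.68 against Control). Its partner Hspe1 behaved alike (1.42 ± 0.10 and −1.09 ± 0.10; difference −2.51, −1.48 against Control).

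Genes of the tricarboxylic acid cycle stood out in the effect with the drug, where 19 of 21 were lower, against 20.9% of all genes. In the difference 16 were lower and 0 higher, with a median of −0.61, but with Control 9 were lower and 7 higher and the median was −0.07. Ogdh, a subunit of the 2-oxoglutarate dehydrogenase complex, stood at 150, 141 and 142 CPM in NC_siRNA, 175, 177 and 174 in Hif1a_siRNA, 356, 304 and 343 in Dox and 149, 118 and 137 in Hif1a_siRNA_Dox. Dox was highest, and the effect was 0.28 ± 0.08 without and −1.31 ± 0.08 with the drug (−1.12 against Control in place of −1.59). Suclg2, a succinate-CoA ligase subunit, went from 1.19 ± 0.08 to −0.49 ± 0.08, with −0.68 against Control in place of −1.68. Idh2 went from 0.79 ± 0.06 to −0.46 ± 0.06, with −0.29 against Control in place of −1.25. Of 15 mitochondrially encoded genes 6 were higher and 1 lower, against 27.2% and 31.2% of all genes, with 5 higher and 3 lower against Control, and 10 were higher when replicate 2 of Hif1a_siRNA_Dox was left out. The apocytochrome gene mt-Cytb went from −1.10 ± 0.11 to 0.81 ± 0.11, and mt-Nd3, a subunit of complex I, from −0.33 ± 0.12 to 1.05 ± 0.10 (0.72 against Control in place of 1.39). The share of mitochondrial reads also differed between the groups, as given above, and its part in these values was not tested.

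NRF2 and antioxidant genes were lower for 15 of 24 and higher for 4, against 31.2% and 27.2% of all genes. With Control, however, they were lower for 7 and higher for 8. Txn1, which encodes thioredoxin, stood at 109, 105 and 113 CPM in NC_siRNA, 216, 201 and 194 in Hif1a_siRNA, 636, 706 and 679 in Dox and 335, 319 and 364 in Hif1a_siRNA_Dox. Its effect went from 0.91 ± 0.07 to −0.99 ± 0.07, with a difference of −1.89 that was −0.64 against Control. Hmox1, heme oxygenase 1, stood at 683, 723 and 715 CPM in NC_siRNA, 171, 169 and 163 in Hif1a_siRNA, 36.5, 38.0 and 39.4 in Dox and 33.3, 45.7 and 35.8 in Hif1a_siRNA_Dox. NC_siRNA was highest and the groups with the drug overlapped, with effects of −2.08 ± 0.08 and 0.01 ± 0.09.

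Genes of cholesterol synthesis and the matrix were higher in the difference more often than lower, and those of the lysosome to a smaller degree. Of 23 genes of cholesterol synthesis 21 were lower without the drug, and 19 were higher and 2 lower in the difference, against 27.2% and 31.2% of all genes, with a median of 0.73. With Control 12 were higher and 4 lower. Sqle, squalene epoxidase, stood at 307, 303 and 295 CPM in NC_siRNA, 146, 144 and 151 in Hif1a_siRNA, 49.0, 58.9 and 54.4 in Dox and 64.9, 82.1 and 61.0 in Hif1a_siRNA_Dox. Levels were lower with the drug, and the effect went from −1.04 ± 0.09 to 0.36 ± 0.09. Nsdhl went from −1.93 ± 0.07 to −0.41 ± 0.07, and Tm7sf2, a sterol reductase, from −1.56 ± 0.09 to 0.16 ± 0.08 (difference 1.71, 0.85 against Control).

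Of 19 matrix genes 13 were higher and 1 lower in the difference, against 27.2% and 31.2% of all genes, with a median of 1.03. With Control 12 were higher and 4 lower, with a median of 0.65. Col5a1, a fibrillar collagen chain, stood at 219, 197 and 208 CPM in NC_siRNA, 21.7, 23.8 and 26.9 in Hif1a_siRNA, 112, 110 and 84.3 in Dox and 134, 107 and 93.3 in Hif1a_siRNA_Dox. Hif1a_siRNA was lowest, Dox and Hif1a_siRNA_Dox overlapped, and the effects were −3.11 ± 0.14 and 0.13 ± 0.13 (difference 3.24, 2.32 against Control). Mmp14, a membrane protease, went from −1.80 ± 0.08 to 0.30 ± 0.07, with a difference of 2.1 that was 0.75 against Control. P3h1, a collagen prolyl hydroxylase, was reversed (−1.23 ± 0.07 and 0.34 ± 0.07; 1.01 against Control in place of 1.57), and Vim, an intermediate filament gene, kept a smaller fall (−1.65 ± 0.06 and −0.31 ± 0.06). Fibroblast markers Col1a1 and Pdgfra summed to 2.58 to 3.19 CPM in NC_siRNA against 4.07 to 5.18 in Hif1a_siRNA, and under the drug to 38.5 to 62.8 against 64.0 to 88.7; their part in the matrix values was not tested. Among lysosomal and autophagy genes 17 of 28 were higher, 5 lower and 6 did not pass, with a median of 0.33. Ctsa, a lysosomal carboxypeptidase, went from −2.85 ± 0.07 to −0.33 ± 0.07, and Wipi1, an autophagosome protein, from −1.04 ± 0.08 to 0.56 ± 0.08. ABC transporters were higher for 11 of 22 and lower for 6, with a median of 0.24 that was −0.02 against Control. Abcd3, a peroxisomal member, went from −0.69 ± 0.07 to 0.53 ± 0.08.

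Immediate early genes were higher in the difference for 12 of 19 and lower for 3, against 27.2% and 31.2% of all genes. The median was 0.85. With Control 10 were higher and 3 lower, with a median of 0.91. Fos, a subunit of AP-1, stood at 24.7, 22.1 and 32.1 CPM in NC_siRNA, 3.54, 3.28 and 3.05 in Hif1a_siRNA, 66.8, 82.6 and 82.0 in Dox and 134, 125 and 114 in Hif1a_siRNA_Dox. Hif1a_siRNA was lowest, all libraries with the drug were above all without it, and Hif1a_siRNA_Dox was above Dox. The effect went from −3.00 ± 0.14 to 0.69 ± 0.11 (difference 3.69 ± 0.18, edgeR adjusted p = 2.2e-12; 4.70 against Control). Ier3 went from −3.07 ± 0.07 to 0.17 ± 0.08 (difference 3.24, 3.91 against Control), Maff from −2.57 ± 0.13 to −0.21 ± 0.10 and Fosl2 from −1.73 ± 0.08 to 0.47 ± 0.08 (difference 2.20, 1.22 against Control).

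Immune genes were mixed. Of 13 NF-kB subunits and targets 6 were higher and 3 lower, against 27.2% and 31.2% of all genes, and 5 and 4 with Control. Tnfrsf9 (gene ID 21942, chromosome 4, 150920155 to 150946104), the costimulatory receptor 4-1BB, had the largest positive difference by the rule for named genes. It stood at 69.1, 75.9 and 77.5 CPM in NC_siRNA, 1.09, 1.31 and 1.4 in Hif1a_siRNA, 3.26, 2.22 and 2.34 in Dox and 2.14, 1.48 and 1.26 in Hif1a_siRNA_Dox. NC_siRNA was over 20-fold above the rest, and the effects were −5.86 ± 0.16 and −0.67 ± 0.20 (difference 5.19 ± 0.27, edgeR adjusted p = 1e-12; 4.13 against Control). Tnfaip3, the NF-kB inhibitor A20, was reversed (−2.39 ± 0.21 and 0.62 ± 0.16; difference 3.01, 2.24 against Control). In antigen presentation by MHC class I 5 of 10 were higher and 2 lower, with a median of 0.18 that was 0.40 with Control. With Control 6 were higher and 1 lower. The 2 lower against NC_siRNA were the peptide transporter genes Tap1 (−0.84) and Tap2 (−1.45), at only 0.82 and 0.732 CPM in NC_siRNA. H2-K1 stood at 327, 355 and 361 CPM in NC_siRNA, 41.1, 43.3 and 41.0 in Hif1a_siRNA, 583, 627 and 621 in Dox and 538, 560 and 466 in Hif1a_siRNA_Dox. Hif1a_siRNA alone was low, and the fall was much smaller with the drug (−0.23 ± 0.07 against −3.06 ± 0.08). H2-T23, a nonclassical class I gene, went from −4.69 ± 0.18 to −0.24 ± 0.16, and Tapbp, which encodes tapasin, from −1.47 ± 0.09 to 0.03 ± 0.09, with a difference of 1.5 that was 0.48 against Control. Class I genes are a family of similar sequences, so the split of their reads is uncertain.

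Interferon and nucleic acid sensing genes were lower for 9 of 22 and higher for 3, against 31.2% and 27.2% of all genes, with a median of −0.52. With Control 13 were lower and 2 higher, with a median of −0.75. Cxcl10 (gene ID 15945, chromosome 5, 92346638 to 92348889), a chemokine, stood at 3.72, 3.79 and 4.5 CPM in NC_siRNA, 90.1, 93.2 and 89.3 in Hif1a_siRNA, 4.08, 4.69 and 4.77 in Dox and 6.15, 6.92 and 5.73 in Hif1a_siRNA_Dox. It was high in Hif1a_siRNA alone, and the rise was 4.50 ± 0.11 without and 0.48 ± 0.12 with the drug (difference −4.03 ± 0.17, edgeR adjusted p = 3.5e-14). Isg15 went from 1.93 ± 0.15 to 0.01 ± 0.12, with Dox at 23.2 ± 1.8 CPM against 7.72 ± 0.61 in Hif1a_siRNA. Mx2 kept part of its rise (0.77 ± 0.18 against 2.31 ± 0.21).

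Melanocyte genes were lower in the difference for 13 of 18 and higher for 3, against 31.2% and 27.2% of all genes. The median was −0.97. With Control 9 were lower and 4 higher, and the median was −0.28. Pmel (gene ID 20431, chromosome 10, 128695888 to 128720238), the fibril protein of melanosomes, stood at 1074, 1055 and 1100 CPM in NC_siRNA, 2630, 2512 and 2604 in Hif1a_siRNA, 13088, 12402 and 14712 in Dox and 11278, 9473 and 9772 in Hif1a_siRNA_Dox. Levels with the drug were above all those without it. Its effect went from 1.26 ± 0.07 to −0.40 ± 0.07 (difference −1.66 ± 0.10, edgeR adjusted p = 1.6e-11), but the difference was 0.07 (edgeR adjusted p = 0.56) against Control. The pigment exchanger Slc24a5 (1.60 ± 0.07 and −0.42 ± 0.06) and the transporter Slc45a2 (1.20 ± 0.08 and −0.77 ± 0.08) were reversed, with differences of −0.81 and −1.40 against Control in place of −2.02 and −1.97.

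The p53 targets had no common direction, with 6 of 23 higher and 10 lower, near the shares of all genes (27.2% and 31.2%). The median was −0.07, and it was 0.01 without replicate 3 of Hif1a_siRNA_Dox and −0.31 with Control, where 7 were higher and 11 lower. Cdkn1a, which encodes the cell cycle inhibitor p21, stood at 646, 678 and 644 CPM in NC_siRNA, 183, 176 and 183 in Hif1a_siRNA, 188, 223 and 206 in Dox and 251, 270 and 244 in Hif1a_siRNA_Dox. NC_siRNA was highest, and all Hif1a_siRNA_Dox libraries were above all Dox libraries. Its effect went from −1.86 ± 0.07 to 0.31 ± 0.07 (difference 2.17 ± 0.09, edgeR adjusted p = 7.2e-14). Sesn2, a stress-induced inhibitor of mTORC1, went from −0.52 ± 0.12 to 1.22 ± 0.13 (0.89 against Control in place of 1.74), and the exonuclease gene Aen from 1.92 ± 0.09 to 0.06 ± 0.08. In the BCL2 family 8 of 13 were higher and 3 lower, and 7 and 5 with Control. The higher ones include Bnip3 and Bnip3l, which stand among the HIF targets above too. Bcl2l11, the proapoptotic BIM, stood at 31.2, 26.9 and 28.4 CPM in NC_siRNA, 10.8, 11.0 and 11.6 in Hif1a_siRNA, 73.7, 85.9 and 67.1 in Dox and 117, 110 and 116 in Hif1a_siRNA_Dox. It was lowest in Hif1a_siRNA and highest in Hif1a_siRNA_Dox, and its effect went from −1.37 ± 0.10 to 0.60 ± 0.09. The antiapoptotic genes Bcl2l1 (1.40 ± 0.09 and −0.28 ± 0.09) and Bcl2 (1.29 ± 0.11 and −0.41 ± 0.10) moved the other way, with −0.99 for Bcl2 against Control in place of −1.69. The family did not split by function, however. The antiapoptotic genes Bcl2l2 and Mcl1 were higher in the difference (1.48 and 0.48), and the proapoptotic gene Bid was lower (−1.18).

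**Figure D5:**
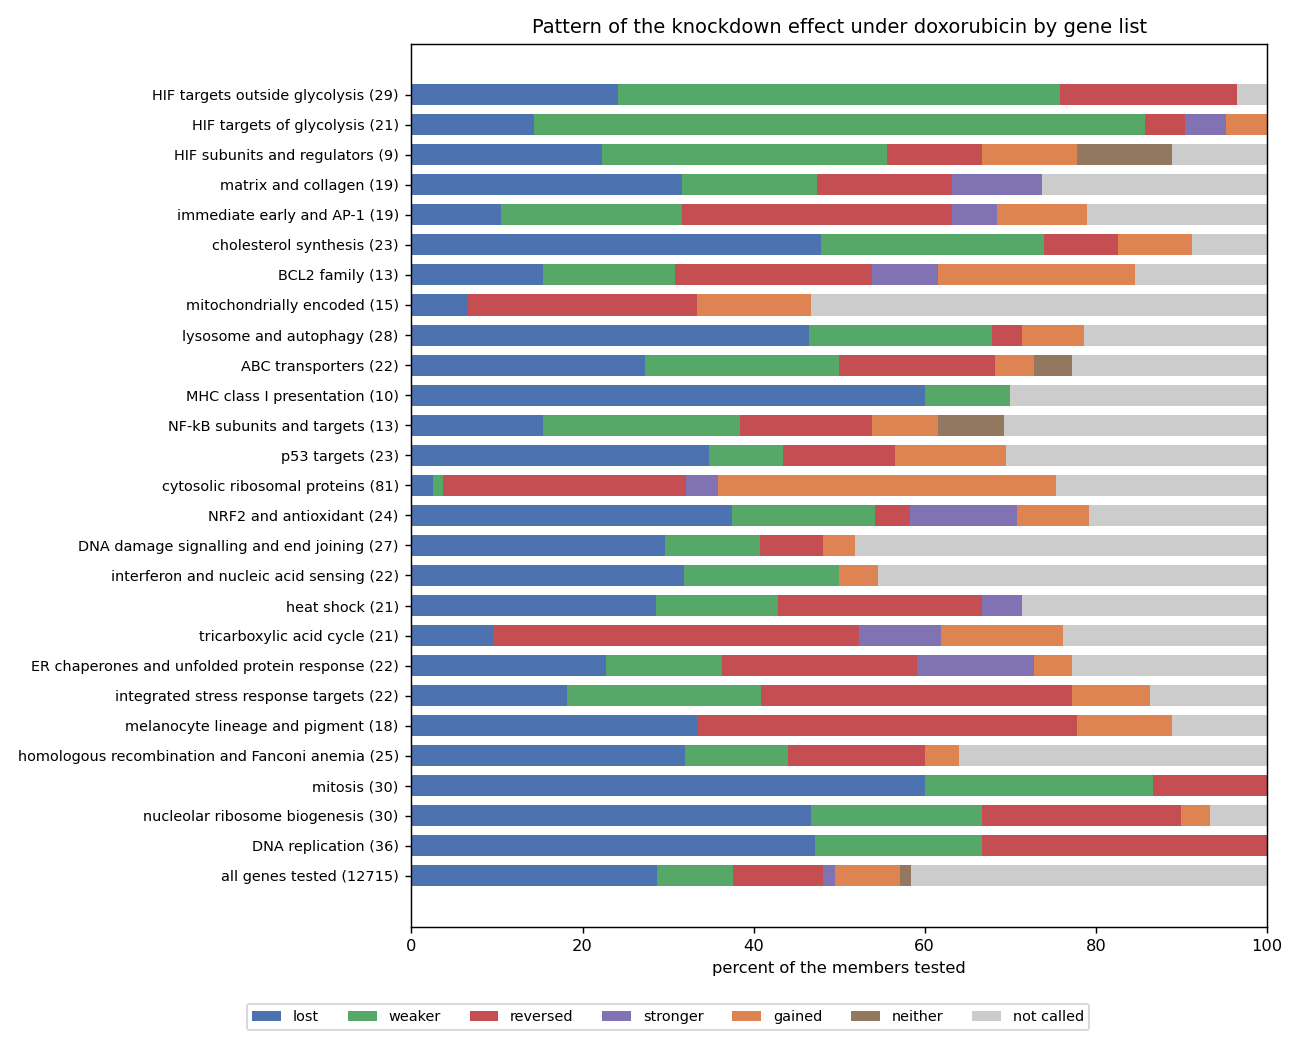
Share of the tested members of each gene list (number in parentheses) with each pattern of the knockdown effect under doxorubicin, ordered as in the plot of list medians, with all genes at the bottom. Weaker effects dominate the lists of HIF targets, lost and reversed effects the replication list, and gained effects are the most common among cytosolic ribosomal proteins.

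The largest differences over the whole table lay partly outside these lists. Selenbp1 (gene ID 20341, chromosome 3, 94933083 to 94944758), a methanethiol oxidase gene, stood at 1009, 1060 and 1026 CPM in NC_siRNA, 28.1, 30.5 and 30.4 in Hif1a_siRNA, 63.9, 62.2 and 63.3 in Dox and 43.4, 43.7 and 38.1 in Hif1a_siRNA_Dox. NC_siRNA was over 10-fold above all other libraries, with effects of −5.12 ± 0.07 and −0.60 ± 0.07 (difference 4.52 ± 0.09, edgeR adjusted p = 2e-18). Its near-identical neighbour Selenbp2 had a difference of 4.91, so how reads were divided between the pair is uncertain. Pgp, a phosphoglycolate phosphatase, went from −4.25 ± 0.13 to −0.06 ± 0.12. Gipr, an incretin receptor gene at 36.1 ± 5.8 CPM in NC_siRNA, went from −5.13 ± 0.25 to −0.34 ± 0.29 (difference 4.79, 3.34 against Control). Slc41a2, a magnesium transporter, was reversed (−3.81 ± 0.16 and 0.65 ± 0.15; difference 4.45, 3.07 against Control). Among negative differences, Ada, adenosine deaminase, stood at 0.41, 0.683 and 0.808 CPM in NC_siRNA, 5.05, 4.19 and 5.75 in Hif1a_siRNA, 44.2, 44.4 and 50.1 in Dox and 30.8, 31.4 and 31.9 in Hif1a_siRNA_Dox. The levels with the drug were above all those without it, and the effect went from 2.98 ± 0.20 to −0.56 ± 0.11 (difference −3.53, −1.90 against Control). Adhfe1 went from 3.72 ± 0.20 to 0.04 ± 0.14, but its difference of −3.67 was −0.77 against Control.

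Reversed genes with the smallest p-values included Txnip, which binds thioredoxin and limits glucose uptake. It stood at 575, 521 and 530 CPM in NC_siRNA, 121, 118 and 121 in Hif1a_siRNA, 211, 236 and 241 in Dox and 365, 314 and 341 in Hif1a_siRNA_Dox. Hif1a_siRNA was lowest, and its effect went from −2.18 ± 0.07 to 0.57 ± 0.07 (difference 2.74, 1.32 against Control). Tfap2a, a transcription factor of the melanocyte lineage, went from −2.33 ± 0.07 to 0.67 ± 0.07. In the other direction were Gart, a purine synthesis enzyme (2.58 ± 0.07 and −0.19 ± 0.06), and Ranbp1, a cofactor of nuclear transport (2.36 ± 0.07 and −0.19 ± 0.06; difference −2.55, −1.86 against Control).

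The 176 genes that responded more under the drug numbered 110 without replicate 1 of Hif1a_siRNA and 115 without replicate 2 of NC_siRNA. Slc25a5 (gene ID 11740, chromosome X, 36795597 to 36798808), an ADP/ATP translocase of mitochondria, stood at 411, 400 and 428 CPM in NC_siRNA, 293, 274 and 285 in Hif1a_siRNA, 773, 775 and 769 in Dox and 158, 160 and 144 in Hif1a_siRNA_Dox. The 4 groups did not overlap, with Dox highest and Hif1a_siRNA_Dox lowest. Its fall was −2.33 ± 0.06 with the drug and −0.54 ± 0.06 without (difference −1.78 ± 0.08, edgeR adjusted p = 2.5e-13; −0.76 against Control). Coro7, a Golgi coronin, stood at 43.0, 54.1 and 46.6 CPM in NC_siRNA, 24.7, 25.0 and 26.5 in Hif1a_siRNA, 131, 127 and 136 in Dox and 13.3, 13.8 and 16.2 in Hif1a_siRNA_Dox. The order of the groups was the same, with effects of −0.91 ± 0.09 and −3.19 ± 0.10. Pigq, an enzyme of GPI anchor synthesis, had effects of −0.93 ± 0.08 without the drug and −2.30 ± 0.09 with it. Rpa3, a subunit of the single-strand DNA binding complex RPA, rose more with the drug (0.98 ± 0.08 against 0.22 ± 0.08).

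Psmd8 and Psma1, which encode proteasome subunits, and Atp6v1a, a proton pump subunit, were among the named genes with an effect gained under the drug. Psmd8 stood at 650, 655 and 705 CPM in NC_siRNA, 705, 729 and 735 in Hif1a_siRNA, 558, 562 and 592 in Dox and 282, 300 and 267 in Hif1a_siRNA_Dox. Hif1a_siRNA_Dox was below the other 9 libraries, and the effect was −1.01 ± 0.06 with the drug and 0.11 ± 0.06 without (−0.28 against Control in place of −1.12). Psma1 had −1.20 ± 0.07 and −0.04 ± 0.07, and Atp6v1a −0.94 ± 0.06 and 0.05 ± 0.06, with a difference of −0.99 that was −0.52 against Control. Fndc3c1 stood at 8.86, 9.14 and 8.97 CPM in NC_siRNA, 8.24, 10.4 and 8.71 in Hif1a_siRNA, 74.6, 71.5 and 82.7 in Dox and 17.6, 12.3 and 12.4 in Hif1a_siRNA_Dox. Dox alone was high, and the effect with the drug was −2.43 ± 0.12 (difference −2.45, −0.99 against Control). In the other direction Arrdc3, an arrestin family gene, had 1.07 ± 0.10 with the drug and −0.05 ± 0.09 without.

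For 3027 genes (23.8%) the 95% interval of the difference lay within 1.5-fold in both directions, which bounds how far the effect can have changed. Of these, 623 were higher and 502 lower in the knockdown in both settings. Among the 3027, 459 also passed the test of the difference, so a bounded difference is not an absent one. Myc, the growth-promoting transcription factor, stood at 17.7, 17.9 and 18.7 CPM in NC_siRNA, 34.3, 42.0 and 36.8 in Hif1a_siRNA, 21.1, 22.9 and 21.6 in Dox and 55.2, 42.7 and 45.5 in Hif1a_siRNA_Dox. Both knockdown groups were above both references, with effects of 1.06 ± 0.10 and 1.13 ± 0.10 and a 95% interval of the difference of −0.23 to 0.38. Timp2, an inhibitor of matrix proteases, stood at 142, 141 and 140 CPM in NC_siRNA, 64.9, 58.3 and 59.3 in Hif1a_siRNA, 490, 466 and 530 in Dox and 218, 224 and 209 in Hif1a_siRNA_Dox. The knockdown libraries were below their references in both settings, with effects of −1.21 ± 0.07 and −1.19 ± 0.06 (interval −0.17 to 0.21). Prickle1, a planar cell polarity gene, had effects of 1.30 ± 0.12 and 1.47 ± 0.13, and Lrp11 of −1.81 ± 0.10 and −1.58 ± 0.10. With Control as reference the difference passed the threshold for Timp2 (−0.42), Prickle1 (−0.96) and Lrp11 (−1.51), though not for Myc (−0.34, edgeR adjusted p = 0.054). Against NC_siRNA it also passed for Prickle1 without replicate 2 of Dox (0.43), and for Lrp11 without replicate 3 of Dox (0.37) or replicate 1 (0.35) or 3 (0.36) of Hif1a_siRNA_Dox.

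The choice of reference without the drug bears on all of these values, since NC_siRNA itself differed from the untreated Control, with 4211 genes (33.1%) higher and 4291 (33.7%) lower at an edgeR adjusted p under 0.05. Both versions of the difference share the Hif1a_siRNA, Dox and Hif1a_siRNA_Dox libraries. Of the 7426 genes called against NC_siRNA, 4465 (60.1%) were called in the same direction against Control, 2347 (31.6%) were not called and 614 (8.27%) were called in the opposite direction.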

How the data were processed

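RNA-seq of 12 B16.F10 libraries was used, as raw read counts per gene that the authors deposited for each library without normalization. Per the submitters' processing notes, the tools were HISAT2 2.1.0, Bowtie2 2.3.4.1, StringTie 2.1.3b, Trimmomatic 0.38 and FastQC 0.11.7, and the build mm10. Each group's table lists its own genes, and 451 genes missing from at least 1 of the 4 groups were left out. The counting tool and its strand setting are not given in the sources used here, so overlapping and antisense genes cannot be told apart. Counts were fitted with edgeR 4.0.16 (R 4.3.3) with 4 group means, TMM factors, no block, robust quasi-likelihood F tests and 8 residual degrees of freedom. Genes needed a count of at least 10 in enough libraries and 15 in total, which removed 6. Benjamini-Hochberg adjustment ran over all 12715 genes, with a threshold of 0.05. CPM values are TMM-scaled, intervals cover 95%, and levels compare one gene between libraries. Depth was 23794094 to 28697411 reads per library, and the common biological coefficient of variation was 0.0894. On simulated counts with 200 changed genes, 31.3% of 1.5-fold, 73.1% of 2-fold and 90.9% of 4-fold differences were recovered, and 5.11% of calls were unchanged genes. Far more genes were called in the data, so these rates need not hold there. The gene lists and the comparison were chosen with earlier results of these data known. Named genes are Hif1a, the 12 largest differences in each direction, the 4 with the smallest p per pattern and direction and per list, every HIF list member, and the 6 largest bounded effects in each direction, of at least 10 CPM and without clone names. A few genes that meet this rule are not reported here. Gene symbols come from the deposited counts, except for 1335 genes named by RefSeq. Promoters come from RefSeq, and coordinates from its mm10 table. Alternatives were DESeq2 1.42.0, limma-voom (limma 3.58.1), other scalings, filters and thresholds, a replicate block, all 15 libraries, Control as reference, linear CPM, protein-coding genes and each library left out.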

Additional observations from a re-analysis of the deposited data

Results flagged for a closer look

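Genes whose knockdown effect passed the test in opposite directions with and without the drug are listed with the difference of the effects, with minus without, on the log2 scale, itself past the edgeR threshold. The report names 50 of the 1342 such genes. In 23 of them the knockdown lowered the gene without the drug and raised it with the drug. The smallest were those of Bhlhe41 (0.49), Kdm4c (0.55), Abcd3 (1.22), mt-Nd3 (1.39), Sqle (1.40), P3h1 (1.57) and Wipi1 (1.61). Larger ones were those of Sesn2 (1.74), mt-Cytb (1.90), Bcl2l11 (1.97), Mmp14 (2.1), Cdkn1a (2.17), Fosl2 (2.20), Cited2 (2.31) and Bhlhe40 (2.35). The largest were those of Ddit4 (2.68), Txnip (2.74), Vegfa (2.79), Tfap2a (3.00), Tnfaip3 (3.01), Ero1a (3.19), Fos (3.69) and Slc41a2 (4.45).

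In the other 27 the knockdown raised the gene without the drug and lowered it with the drug. The smallest were those of Rps2 (−0.86), Idh2 (−1.25), Ogdh (−1.59), Mthfd2 (−1.64), Pmel (−1.66), Suclg2 (−1.68), Bcl2l1 (−1.69) and Bcl2 (−1.69). Larger ones were those of Shmt2 (−1.81), Txn1 (−1.89), Slc3a2 (−1.90), Slc45a2 (−1.97), Slc24a5 (−2.02), Slc2a3 (−2.13), Slc7a5 (−2.39) and Fanci (−2.46). Then came Hspe1 (−2.51), Mcm5 (−2.53), Birc5 (−2.54), Ranbp1 (−2.55), Mcm2 (−2.60), Hspd1 (−2.67), Bub1 (−2.71) and Gart (−2.77). The largest were those of Ada (−3.53), Pole (−3.56) and Cdc6 (−3.80). With Control as the reference without the drug, the differences of Bub1 and Pmel did not pass, and that of Rps2 passed with the opposite sign. For Idh2, Ogdh, Mthfd2, Txn1, Sesn2 and mt-Nd3 the difference against Control was smaller in size than the effect with the drug. Their effects with and without the drug were thus not opposite against Control. With that reference 873 genes were reversed in place of 1342.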

How the results depend on the processing

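The counts of genes higher and lower in the difference were 3832 and 3608 with DESeq2, 3824 and 3605 with DESeq2-type size factors, 3312 and 4119 with upper-quartile factors, 3435 and 4051 with limma-voom, 3884 and 3526 with a filter of 1 CPM in 3 libraries, and 2762 and 3233 at an adjusted p under 0.01. Leaving out each library in turn gave 3202 to 4048 higher and 3321 to 3768 lower, with 110 to 252 genes in the stronger pattern and 6 to 10 mitochondrially encoded genes higher. Over all 12715 genes the median difference was −0.05, and 0.02 with DESeq2-type size factors. At an adjusted p under 0.01 the weaker pattern held 658 genes, the reversed 798 and the stronger 73, fewer by construction.

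Control in place of NC_siRNA gave 3346 genes higher and 4109 lower, with 1791 weaker, 873 reversed and 590 gained. Among lists, 5 HIF subunits and regulators were higher, 16 mitotic genes lower, 12 cholesterol genes higher, 9 tricarboxylic acid cycle genes lower, 7 NRF2 genes lower and 0 ribosomal protein genes lower. The sign of the difference turned for Rpl8 (0.33) and Rps2 (0.28), which passed with either reference. It also turned for Aldoa (0.08), Pmel (0.07) and Rpl3 (0.05), which passed only against NC_siRNA. For Col1a1 (1.05), Lrp11 (−1.51), Narf (−0.41), Prickle1 (−0.96) and Timp2 (−0.42) it turned too, and these passed only against Control. Myc (−0.34) turned without passing against either. The cause was not tested. On the scale of CPM in place of log2 the sign turned for 300 of the called genes (4.04%), among them, of the genes named, Aldoa (1886), Eno1 (−396) and Pkm (−300).

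Replicate numbers showed no strong pairing of the libraries. The 18 correlations between same-numbered libraries' deviations from their group means ran from −0.0704 to 0.0877, with 0 over 0.1. Of the 12 libraries, 7 correlated best with their own number. With 3 libraries in a group, a weak pairing cannot be told from none. A replicate block gave 3420 genes higher and 3975 lower, and it moved none of the list counts by over 1.5 times. On simulated counts with 3 libraries in a group and 200 changed genes, 31.3% of 1.5-fold differences were recovered. In the data 7426 genes were called. The adjusted p depends on how many genes change, so this rate does not give the sensitivity here. Depth was not varied. A gene that did not pass is not shown to respond equally. The Dox group, whose label names no siRNA, limits every value of the effect with the drug.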

Other observations

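A pair of genes fell far more under the drug than without it. They were chosen after their values were seen. G6pdx, the first enzyme of the pentose phosphate pathway, stood at 148, 142 and 142 CPM in NC_siRNA, 15.9, 15.8 and 16.1 in Hif1a_siRNA, 191, 196 and 200 in Dox and 6.26, 9.18 and 11.3 in Hif1a_siRNA_Dox. Both knockdown groups were far below both references, and the effects were −3.18 ± 0.12 and −4.46 ± 0.13 (difference −1.29 ± 0.16, edgeR adjusted p = 1.8e-06; −1.0 with Control in place of NC_siRNA). Crtap, a partner of collagen prolyl 3-hydroxylation, stood at 24.2, 23.8 and 25.4 CPM in NC_siRNA, 8.65, 9.51 and 8.33 in Hif1a_siRNA, 93.8, 83.7 and 95.7 in Dox and 12.6, 11.7 and 10.2 in Hif1a_siRNA_Dox. Its effects were −1.47 ± 0.10 and −2.98 ± 0.10 (difference −1.51 ± 0.14, −2.78 with Control), while most matrix genes had a positive difference.

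Pseudogenes clustered at the effect of Gapdh without the drug. Within 0.15 on the log2 scale of that effect lay 96 genes, of which 48 had the plain annotation pseudogene, against 6.30% of all tested genes. Other annotated classes of pseudogene were left out of these counts. At the same distance above 0 there were 20 genes, with 1 pseudogene. The 48 had effects of −2.23 to −0.17 with the drug. The share of reads in pseudogenes of any annotated class was 3.06% to 3.32% in NC_siRNA against 1.63% to 1.70% in Hif1a_siRNA. Under the drug it was 2.37% to 2.48% in Dox against 1.94% to 1.98% in Hif1a_siRNA_Dox. How the counting assigned reads that match several loci was not tested.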
